A study of Homo sapiens with 15 samples.

Results

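The core autophagy genes described here are 10 genes that build, load and pull in the autophagosome: the initiating kinases ULK1 and ULK2, the lipid kinase subunit BECN1, the membrane proteins ATG9A and WIPI1, the ATG8 proteins MAP1LC3B, GABARAP, GABARAPL1 and GABARAPL2, and the cargo receptor SQSTM1. They were chosen by name, and each was matched to 1 of the 47634 gene identifiers that every table holds. All 10 passed the filter on low counts and are among the 11113 genes tested. Their read counts were followed in 15 libraries of IGROV-CP20 cells, a line of human ovarian cancer cells that resists cisplatin, with 3 libraries in each of 5 conditions. Cells were left untreated, were given 50 µM cisplatin for 24 h, or were exposed to 1 of 3 drugs (Tranilast, Telmisartan, Amphotericin B) at 10 µM over the 24 h that preceded the same cisplatin treatment. Cisplatin is a platinum drug that damages DNA, Tranilast is an anti-allergic drug, Telmisartan blocks the angiotensin II receptor, and Amphotericin B is an antifungal that forms pores in membranes. Every drug library therefore also carries the cisplatin treatment, and no library of a drug without cisplatin was analysed here. The line stands for resistance acquired by 1 cell line in culture, and p-values measure the spread between libraries that the labels call biological replicates.

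In autophagy, a cell encloses part of its cytoplasm in a double membrane, the autophagosome, and delivers it to lysosomes for degradation. The ULK kinases start the process when nutrient signaling through mTORC1 falls, a lipid kinase complex that contains BECN1 marks the membrane with phosphatidylinositol 3-phosphate, and WIPI proteins read that mark while ATG9A vesicles supply lipid. ATG8 proteins are then attached to the growing membrane, where receptors such as SQSTM1, also called p62, dock with their cargo. Because SQSTM1 and the ATG8 proteins are degraded with the cargo and the kinases are controlled by phosphorylation, an mRNA level is not a measure of autophagic flux.

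The 15 libraries hold between 1510620 and 3517041 counts, and levels are given on the counts-per-million scale (CPM) with TMM factors. Before scaling, 3 counts stand for 0.853 to 1.99 CPM in a library. Of the markers of an ovarian epithelial line, KRT18 and EPCAM were present in every library, while PAX8, KRT7, WT1 and MUC16 were at or near 0 (at most 3.21 CPM, MUC16 with Amphotericin B), and 3 of the 9 markers (KRT18, EPCAM, KRT8) exceeded 10 CPM in more than 1 condition. EPCAM was at 39.9 to 43.4 CPM in untreated cells and at 11.2 to 25.7 CPM in all others, whereas KRT18 was at 84.0 to 92.4 CPM untreated and at 104 to 209 CPM in all others. The summed level of 9 such markers was 148 to 154 CPM in untreated cells, 172 to 206 with cisplatin, 147 to 169 with Tranilast, 149 to 220.4 with Telmisartan and 192 to 253 with Amphotericin B. The leukocyte list (4 genes) moved with cisplatin, from 64.7 to 75.6 CPM in untreated cells to between 4.37 and 22.6 CPM in all other libraries, nearly all of it from PTPRC, a leukocyte gene. The labels of the line and of the untreated cells are used as given, and how far differences between these cells other than the treatment enter the comparisons with untreated cells was not tested. The 2 endothelial markers in the tables were at 0. The fibroblast list (5 genes) summed to 7.97 to 9.50 CPM in untreated cells and to 15.3 to 41.7 CPM elsewhere. The share of counts on the mitochondrial rRNA genes also differed between libraries, from 1.79% to 2.20% in untreated cells and 2.10% to 2.53% with Tranilast to 12.3% to 14.8% with Amphotericin B. It was 13.7%, 5.61% and 3.41% with cisplatin and 10.8%, 12.9% and 3.61% with Telmisartan. In these last conditions cisplatin replicate 1 and Telmisartan replicate 3 stand apart from the other libraries of their group across all genes, and values without them are given beside many of the results below. By this share, cisplatin replicate 1 lies beside Telmisartan replicates 1 and 2, and Telmisartan replicate 3 beside cisplatin replicates 2 and 3. The labels of these libraries are used as given, and whether they hold was not tested. The part of these markers and shares in the results was not tested, except through a fit with the mitochondrial rRNA share as a covariate. In bulk RNA, a change in the makeup of the cells and a change of RNA per cell cannot be told apart.

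Cisplatin alone was first compared with untreated cells, which asks how the resistant line itself responded to platinum. Of the 10 genes, SQSTM1, GABARAP, GABARAPL1 and ULK1 rose and ULK2 and WIPI1 fell (edgeR quasi-likelihood test, Benjamini-Hochberg adjusted over all genes tested), while MAP1LC3B, GABARAPL2, ATG9A and BECN1 did not pass the test. This is 4 genes higher and 2 lower, where 21.1% of all genes tested were called higher and 23.6% lower. The median log2 fold change of the 10 genes was 0.27 and that of all genes tested was -0.015. Nothing particular to the 10 genes is read from these shares.

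The initiating kinases moved in opposite directions. ULK1 (ENSG00000177169, chromosome 12, 131894651 to 131923167, plus strand, GENCODE 29 on GRCh38) had 17.9, 26.2 and 20.1 CPM in the untreated replicates and 20.2, 48.1 and 48.5 CPM in the cisplatin replicates, a rise from 21.4 ± 4.31 to 38.9 ± 16.2 CPM (SD, n = 3; log2 fold change 0.87, SE 0.29, adjusted p = 0.0228, edgeR). Replicates 2 and 3 stood above all untreated libraries, but replicate 1 lay among them. ULK2 (ENSG00000083290, chromosome 17, 19770829 to 19867936, minus strand) had 12.8, 12.1 and 18.3 CPM untreated and 6.72, 5.89 and 8.34 CPM with cisplatin, and the groups did not overlap. The fall of ULK2 was 2.04-fold (log2 fold change -1.03, SE 0.29, adjusted p = 0.00833, edgeR), on counts of 40, 42 and 72 and of 12, 12 and 21, few enough that counting error alone is wide. The rise of ULK1 without cisplatin replicate 1 was 1.16 on the log2 scale (adjusted p = 0.00064, edgeR). It no longer passed without untreated replicate 1 (adjusted p = 0.0913), untreated replicate 3 (0.0754), cisplatin replicate 2 (0.104) or cisplatin replicate 3 (0.0979), nor when libraries were scaled by their totals alone (0.257) or only the 6 libraries compared were fitted (0.0545). The fall of ULK2 no longer passed without untreated replicate 3 (adjusted p = 0.0575) or with the mitochondrial rRNA share as a covariate (0.0534).

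Since these paralogs moved apart, the stretch just before their transcription start is shown for each, 80 bases on the coding strand from RefSeq (GRCh38.p14), at chr12:131894542-131894621 for ULK1 (plus strand) and chr17:19867937-19868016 for ULK2 (minus strand). The third line is a 30-base stretch before the RefSeq start of MAP1LC3B, which lies inside the longer gene model of GENCODE, at chr16:87392278-87392307 (plus strand), with the match to the antioxidant response element core in capitals.
ULK1: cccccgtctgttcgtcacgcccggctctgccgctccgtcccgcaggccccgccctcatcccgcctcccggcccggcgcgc
ULK2: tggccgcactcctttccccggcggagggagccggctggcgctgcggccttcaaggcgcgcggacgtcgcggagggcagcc
MAP1LC3B: tcgcgagtcaccTGACCAGGCtgcgggctg
For 7 of the 10 genes, MAP1LC3B among them and the ULK genes not, the 80 bases before the RefSeq start overlap an exon of the same gene in GENCODE. Both ULK promoters are rich in G and C, which make up 78.0% of the 250 bases before the ULK1 start and 76.0% of those before the ULK2 start. Over the 10 genes this share ran from 51.6% at GABARAPL1 to 79.6% at WIPI1. Of 3 motifs sought on both strands of the 250 bases before each start, the E-box CACGTG read by the TFEB family and the AP-1 site TGANTCA were found in none of the 10 genes, against 6.34% and 6.57% of all 35116 promoter windows. The antioxidant response element core TGACNNNGC, bound by NRF2, was found only at MAP1LC3B, where it begins 46 bases before the start, and in 10.9% of all windows. The AP-1 site and this core can overlap, and a missing match says only that these letters are not in these windows.

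The clearest rise was that of the cargo receptor. SQSTM1 (ENSG00000161011, chromosome 5, 179806398 to 179838078, plus strand) had 216, 216 and 187 CPM untreated and 425, 439 and 479 CPM with cisplatin, so that the lowest treated library was well above the highest untreated one. Its mean went from 207 ± 16.8 to 448 ± 28.2 CPM (SD, n = 3), a 2.17-fold rise (log2 fold change 1.12, SE 0.19, adjusted p = 0.000178, edgeR), and it passed the test under all 26 alternatives. SQSTM1 overlaps MRNIP and MGAT4B on the other strand, with 1964 and 2210 counts over the 15 libraries, and whether the counting used the strand is not given in the sources used here. In the same way MAP1LC3B overlaps FBXO31 (899 counts), BECN1 overlaps PSME3 (4394 counts) and WIPI1 overlaps ARSG (55 counts).

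Among the ATG8 proteins, GABARAP, which acts late in autophagosome formation and binds ULK1, rose most. GABARAP (ENSG00000170296, chromosome 17, 7240014 to 7242770, minus strand) had 133, 150.5 and 141 CPM untreated and 385, 268 and 245 CPM with cisplatin, again without overlap (2.11-fold; log2 fold change 1.08, SE 0.20, adjusted p = 0.000379, edgeR), and passed under all 26 alternatives. Cisplatin replicate 1, the library with the most mitochondrial rRNA of its group, was the highest. GABARAPL1 (ENSG00000139112, chromosome 12, 10212458 to 10223130, plus strand) had 198, 202 and 191 CPM untreated and 198, 316 and 344 CPM with cisplatin. Here replicate 1 was the lowest and lay among the untreated libraries (log2 fold change 0.54, SE 0.21, adjusted p = 0.0494, edgeR). That call sits at the threshold: it was kept in 8 of 26 alternatives, with adjusted p from 4.71e-06 with the mitochondrial rRNA share as a covariate (0.00482 without cisplatin replicate 1) to 0.583 when libraries were scaled by their totals alone. It was lost without cisplatin replicate 2 (adjusted p = 0.152), cisplatin replicate 3 (0.195), each untreated replicate (0.112, 0.103 and 0.13), and also without any 1 library of Tranilast or Amphotericin B or Telmisartan replicate 1 (0.0519 to 0.0673).

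MAP1LC3B, which encodes the LC3B protein used as the standard marker of autophagosomes, did not pass the test. MAP1LC3B (ENSG00000140941, chromosome 16, 87383995 to 87404779, plus strand) had 130.1, 112 and 119 CPM untreated and 179, 119 and 125 CPM with cisplatin, where only replicate 1 stood apart, with a log2 fold change of 0.23 and a 95% interval of -0.14 to 0.59 (adjusted p = 0.298, edgeR). GABARAPL2 (ENSG00000034713, chromosome 16, 75566351 to 75577881, plus strand) had 70.8, 60.7 and 60.3 CPM untreated and 100.2, 70.6 and 61.2 CPM with cisplatin, with an interval of -0.32 to 0.86 (adjusted p = 0.452, edgeR). For both genes the direction turned when libraries were scaled by their totals alone and with the mitochondrial rRNA share as a covariate, and without cisplatin replicate 1 the log2 fold changes were 0.0065 and 0.027. These intervals leave room for a rise of GABARAPL2 of up to 0.86 on the log2 scale. The near copies of the genes took almost no reads: MAP1LC3B2 had 2 counts over all libraries, and the pseudogenes of MAP1LC3B, SQSTM1 and BECN1 had 0. The remaining ATG8 genes, MAP1LC3A, MAP1LC3C and MAP1LC3B2, did not pass the filter on low counts.

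WIPI1, the reader of phosphatidylinositol 3-phosphate on forming autophagosomes, showed the largest change of the 10 genes. WIPI1 (ENSG00000070540, chromosome 17, 68420948 to 68457513, minus strand) had 16.9, 15.5 and 16.3 CPM untreated and 2.80, 3.43 and 9.13 CPM with cisplatin, a 3.01-fold fall (log2 fold change -1.59, SE 0.42, adjusted p = 0.00544, edgeR) on counts of 53, 54 and 64 and of 5, 7 and 23. All cisplatin libraries lay below the untreated ones, and the fall passed under all 26 alternatives. ATG9A (ENSG00000198925, chromosome 2, 219219380 to 219229717, minus strand), a scramblase carried on vesicles that seed the membrane, had 64.1, 64.7 and 56.8 CPM untreated and 66.1, 64.7 and 91.3 CPM with cisplatin. Its difference was carried by cisplatin replicate 3 and did not pass (log2 fold change 0.26, adjusted p = 0.353, edgeR). With the mitochondrial rRNA share as a covariate, ATG9A was called higher (log2 fold change 0.56, adjusted p = 0.0171, edgeR), the 1 of 26 alternatives that called it. BECN1 (ENSG00000126581, chromosome 17, 42810134 to 42833350, minus strand) held nearly the same level, 90.2, 88.3 and 101 CPM untreated and 93.0, 102 and 91.7 CPM with cisplatin, with a 95% interval of -0.28 to 0.35 for the log2 fold change.

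**Figure D1:**
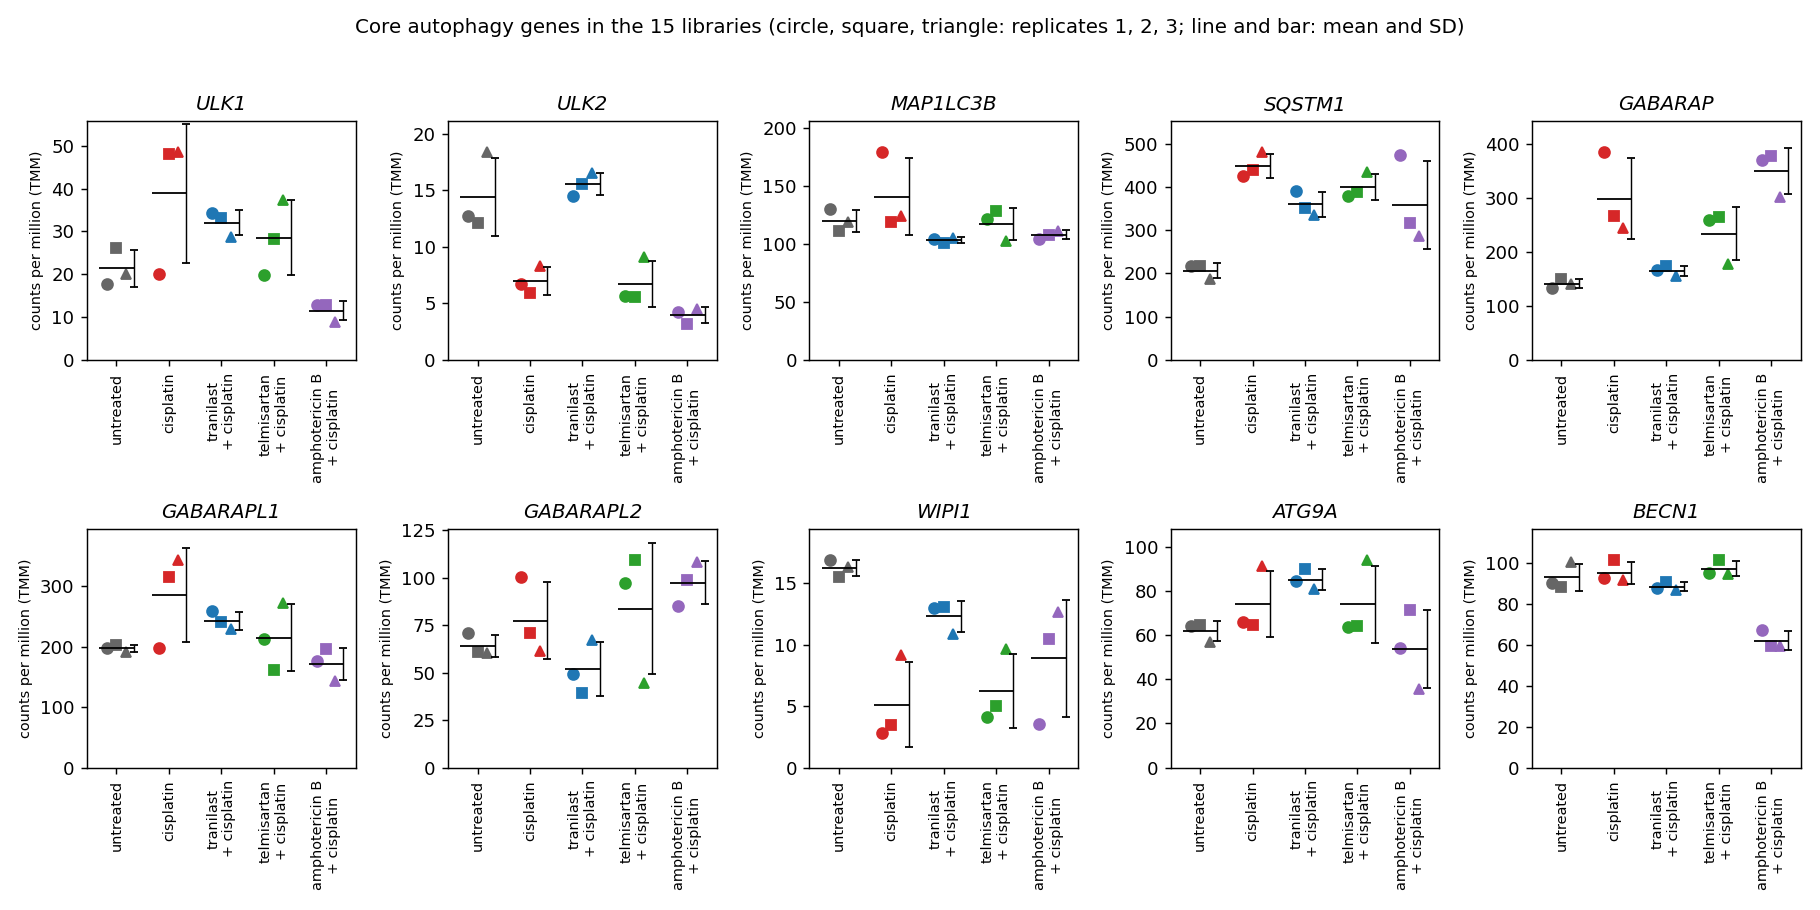
CPM (vertical axis, TMM scaled, starting at 0) of the 10 core autophagy genes in each library of the 5 conditions (horizontal axis), with the mean and SD of the 3 libraries of each condition. SQSTM1 lies between 187 and 216 CPM in the untreated libraries and between 285 and 479 CPM in all libraries given cisplatin, and cisplatin replicate 1 (red circle) sits away from replicates 2 and 3 for ULK1, GABARAP, GABARAPL1 and MAP1LC3B.

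Tranilast was then compared with cisplatin alone, which asks what the drug added to the platinum response. ULK2 rose and GABARAP fell, and 8 genes did not pass the test, where 10.5% of all genes tested were called higher and 11.6% lower. This comparison shares the cisplatin libraries with the previous one, so their directions are not independent. The median log2 fold change was -0.26 over the 10 genes and 0.023 over all genes tested.

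ULK2 had 14.5, 15.5 and 16.5 CPM with Tranilast, above every library of cisplatin alone (5.89 to 8.34 CPM), a 2.20-fold rise (log2 fold change 1.14, SE 0.29, adjusted p = 0.0108, edgeR). These levels lie within the 12.1 to 18.3 CPM of untreated cells. GABARAP had 166, 174 and 156 CPM, below every library of cisplatin alone and above every untreated library, a 1.81-fold fall against cisplatin (log2 fold change -0.85, SE 0.20, adjusted p = 0.00693, edgeR). WIPI1 had 13.0, 13.1 and 10.8 CPM, above all 3 libraries of cisplatin alone and below all untreated ones, but just missed the threshold (log2 fold change 1.19, SE 0.43, adjusted p = 0.0527, edgeR). It passed in 9 of 26 alternatives, DESeq2 and limma-voom among them. The log2 fold change of WIPI1 ran from 0.64 to 1.96 over these. Its highest adjusted p was 0.231, with the mitochondrial rRNA share as a covariate (edgeR). The rise of ULK2 no longer passed without cisplatin replicate 2 (adjusted p = 0.0513), and the fall of GABARAP was lost when libraries were scaled by their totals alone (0.0944).

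SQSTM1 with Tranilast was at 391, 352 and 335 CPM, below the 425 to 479 CPM of cisplatin alone in each library but without passing the test (log2 fold change -0.32, SE 0.19, adjusted p = 0.224, edgeR). MAP1LC3B had 104, 101 and 106 CPM, a log2 fold change of -0.44 with a 95% interval of -0.81 to -0.077 (adjusted p = 0.074, edgeR), and the Tranilast libraries were nearly level with each other. Without cisplatin replicate 1, which had the most MAP1LC3B of its group, that value was -0.22 (adjusted p = 0.329, edgeR), and those of ULK1, GABARAPL1 and GABARAPL2 went from -0.29, -0.23 and -0.56 to -0.58, -0.43 and -0.32. ULK1 had 34.2, 33.3 and 28.7 CPM and GABARAPL1 259, 241 and 229 CPM, both within the range of cisplatin alone. GABARAPL2 had 49.1, 39.5 and 67.3 CPM, ATG9A 84.5, 90.2 and 80.8 CPM and BECN1 87.8, 91.0 and 86.9 CPM, with adjusted p of 0.154, 0.551 and 0.635 (edgeR). Without cisplatin replicate 1 and Telmisartan replicate 3, ULK1 and GABARAPL1 were also called lower with Tranilast (adjusted p = 0.0167 and 0.0154), and 4 of 10 genes in all, where that fit called 18.1% of all genes higher and 18.2% lower.

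With Telmisartan, none of the 10 genes passed the test against cisplatin alone (0 at an adjusted p under 0.05 by edgeR, DESeq2, the likelihood ratio test or limma-voom, and 0 at an unadjusted p under 0.05 by edgeR), and no gene of all 11113 did either (0% called higher and 0% called lower, with 1150 at an unadjusted p under 0.05, 3 called higher and 19 lower by DESeq2, 11 and 13 by the likelihood ratio test, and 0 by limma-voom). The intervals remain wide. That of GABARAPL1, at 213, 161 and 272 CPM, ran from -0.86 to 0.044 on the log2 scale, that of GABARAP, at 260.3, 265 and 178 CPM, from -0.77 to 0.06, and that of ULK1, at 19.9, 28.2 and 37.4 CPM, from -1.06 to 0.18. For each of these the library that stands apart, replicate 3, was at an end of the range. SQSTM1 had 378, 388 and 434 CPM and MAP1LC3B 122, 129 and 102 CPM, with log2 fold changes of -0.16 and -0.26. Leaving out cisplatin replicate 1, the value of MAP1LC3B was -0.017, and those of GABARAP, ULK1, GABARAPL2, WIPI1 and ATG9A went from -0.35, -0.44, 0.10, 0.30 and 0.0045 to -0.093, -0.70, 0.37, 0.08 and -0.032. Without Telmisartan replicate 3 the same 5 genes had -0.19, -0.71, 0.43, -0.26 and -0.22, MAP1LC3B had -0.17, GABARAPL1 -0.61 (from -0.41) and ULK2 -0.34 (from -0.0067), none of them called. ULK2 had 5.61, 5.52 and 9.08 CPM and WIPI1 4.08, 4.97 and 9.63 CPM, all below the untreated libraries. BECN1 was even, at 95.4, 102 and 95.0 CPM with an interval of -0.29 to 0.34, while GABARAPL2 (97.5, 109 and 44.3 CPM) and ATG9A (63.8, 64.1 and 94.1 CPM) had replicate 3 apart from the other libraries. Without cisplatin replicate 1 and Telmisartan replicate 3, which leaves 2 libraries a group, ULK1 and GABARAPL1 were called lower and GABARAPL2 higher (log2 fold change -1.01, -0.82 and 0.65, adjusted p = 0.00244, 0.000468 and 0.017, edgeR). The same fit called 12.4% of all genes higher and 12.5% lower, so that the 1 higher and 2 lower of the 10 genes are close to that background.

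With Amphotericin B, ULK1, BECN1 and GABARAPL1 fell against cisplatin alone and none of the 10 genes rose, where 4.21% of all genes tested were called higher and 9.01% lower. The median log2 fold change was -0.42 over the 10 genes and -0.035 over all genes tested. ULK1 had 12.8, 12.8 and 8.94 CPM, below every library of the other 4 conditions, a 3.39-fold fall against cisplatin (log2 fold change -1.76, SE 0.35, adjusted p = 0.00623, edgeR) on counts of 18, 16 and 12. BECN1, which was level in all other conditions, had 67.6, 59.4 and 59.6 CPM, also below every other library (log2 fold change -0.62, SE 0.16, adjusted p = 0.0178, edgeR). GABARAPL1 had 176, 197 and 144 CPM against 198, 316 and 344 CPM, with all 3 libraries under the lowest of cisplatin alone (log2 fold change -0.73, SE 0.22, adjusted p = 0.0361, edgeR). The fall of ULK1 passed in 25 of 26 alternatives, and failed when only the 6 libraries compared were fitted (adjusted p = 0.0504), a fit in which BECN1 (0.148) and GABARAPL1 (0.132) failed too. BECN1 also failed without cisplatin replicate 2 (0.0918), Amphotericin B replicate 2 (0.0517) or Amphotericin B replicate 3 (0.0761) and without a filter (0.0626), and GABARAPL1 passed in 14 of 26 alternatives.

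For GABARAPL1, the call was lost with the mitochondrial rRNA share as a covariate (adjusted p = 0.415), when libraries were scaled by their totals alone (0.0545) and without cisplatin replicate 2 (0.152), cisplatin replicate 3 (0.148), Amphotericin B replicate 1 (0.0833) or Amphotericin B replicate 3 (0.148), and narrowly without Tranilast replicate 2 (0.0513), Tranilast replicate 3 (0.05001) or an untreated library (0.0503 to 0.0509). The other 7 genes did not pass. GABARAP was at 370.5, 379 and 302 CPM and GABARAPL2 at 85.3, 98.7 and 108 CPM, the levels of SQSTM1 spread from 285 to 474 CPM, and MAP1LC3B was at 105, 108 and 112 CPM. WIPI1 had 3.56, 10.4 and 12.7 CPM, where replicate 1 lay within the range of cisplatin alone. ULK2 had 4.27, 3.21 and 4.47 CPM from counts of 6, 4 and 6, lower than in each library of cisplatin alone but with an interval of -1.63 to 0.0099 for the log2 fold change. ATG9A had 54.0, 71.4 and 35.8 CPM (log2 fold change -0.47, SE 0.24, adjusted p = 0.182, edgeR). Without cisplatin replicate 1 and Telmisartan replicate 3, 6 of 10 genes were called, ULK1, BECN1, GABARAPL1 and ATG9A lower and GABARAP and GABARAPL2 higher, in a fit that called 20.5% of all genes higher and 22.9% lower. When cisplatin replicate 1 alone was left out, the log2 fold changes of MAP1LC3B, GABARAP and GABARAPL2 went from -0.38, 0.23 and 0.34 to -0.13, 0.49 and 0.61, and none of these was called.

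**Figure D2:**
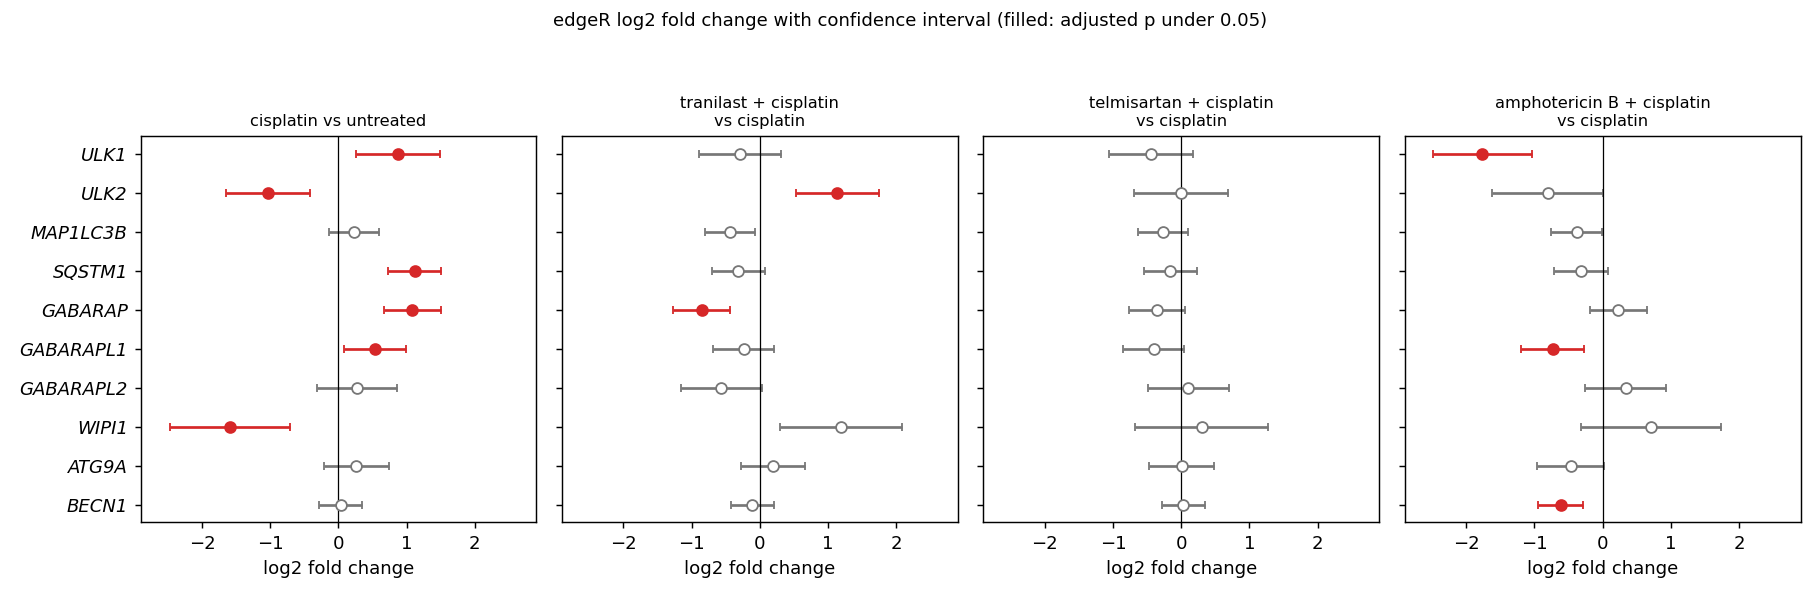
Log2 fold change (horizontal axis) of the 10 genes, with its 95% interval, for cisplatin against untreated cells and for each drug with cisplatin against cisplatin alone, with filled red points for an adjusted p under 0.05. Cisplatin has 6 filled points, Tranilast 2, Telmisartan 0 and Amphotericin B 3.

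Since a gene called with 1 drug and not with another is not shown to differ, the drugs were also compared with each other. Tranilast and Amphotericin B differed in 6 of 10 genes: ULK1, ULK2, ATG9A and BECN1 were higher with Tranilast, and GABARAP and GABARAPL2 were lower. In this comparison 19.7% of all genes tested were called higher and 16.4% lower, and the median of all genes was itself shifted, to 0.15, against 0.49 for the 10 genes. ULK2 differed most, at 14.5 to 16.5 CPM with Tranilast and 3.21 to 4.47 CPM with Amphotericin B (log2 fold change 1.95, SE 0.35, adjusted p = 0.00113, edgeR). ULK1 followed, at 28.7 to 34.2 and 8.94 to 12.8 CPM (log2 fold change 1.47, SE 0.34, adjusted p = 0.00417, edgeR). In the other direction GABARAP lay at 156 to 174 CPM with Tranilast and 302 to 379 CPM with Amphotericin B (log2 fold change -1.08, SE 0.20, adjusted p = 0.0012, edgeR), and GABARAPL2 at 39.5 to 67.3 and 85.3 to 108 CPM (log2 fold change -0.90, SE 0.28, adjusted p = 0.0208, edgeR). ATG9A and BECN1 were 1.59-fold and 1.42-fold higher with Tranilast (adjusted p = 0.0333 and 0.0173, edgeR). The levels of each of these genes did not overlap between the drugs, but how often this holds over all genes was not counted. With RLE factors the balance over all genes turned, to 14.9% higher and 18.9% lower with a median of 0.027, and ATG9A (adjusted p = 0.0671) and BECN1 (0.06) no longer passed. By DESeq2 ATG9A did not pass either (0.0547).

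None of these 6 calls was kept with the mitochondrial rRNA share as a covariate (adjusted p from 0.292 for ULK2 to 0.966 for ATG9A), a share of 2.10% to 2.53% with Tranilast and of 12.3% to 14.8% with Amphotericin B, so that the share and the drug cannot be told apart in this comparison. In that fit 0.675% of all genes were called higher and 0.099% lower, and the log2 differences were 1.38 for ULK2, 0.54 for BECN1, 0.37 for ULK1, 0.043 for ATG9A, -0.42 for GABARAP and 0.24 for GABARAPL2. ULK1, ULK2 and GABARAP were called in each fit that left out 1 library. The calls of ATG9A, BECN1 and GABARAPL2 were lost without Amphotericin B replicate 3 (adjusted p = 0.193, 0.0697 and 0.0702) and without Tranilast replicate 2 (0.0872, 0.0523 and 0.0962). ATG9A and GABARAPL2 were also lost without Tranilast replicate 1 (0.0652 and 0.0648), and ATG9A without Tranilast replicate 3 (0.0588) or Amphotericin B replicate 1 (0.0767). When libraries were scaled by their totals alone, 7 genes were higher with Tranilast and 1 lower, against 47.8% and 6.87% of all genes and with the median of all genes at 0.81, and the fall of GABARAPL2 no longer passed (adjusted p = 0.402).

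Between Tranilast and Telmisartan, only ULK2 passed, at 14.5 to 16.5 CPM with Tranilast and 5.52 to 9.08 CPM with Telmisartan (log2 fold change 1.14, SE 0.28, adjusted p = 0.0441, edgeR), where 0.585% of all genes tested were called higher and 1.75% lower. This call was kept in 10 of 26 alternatives and was lost in 12 of the 15 fits that left out 1 library, with adjusted p up to 0.278 without Telmisartan replicate 1, and kept without cisplatin replicate 1, cisplatin replicate 3 or Telmisartan replicate 3. Without Telmisartan replicate 3, GABARAP and GABARAPL2 were also called lower and WIPI1 higher with Tranilast, where 11.5% of all genes were called higher and 12.8% lower. Between Telmisartan and Amphotericin B, 0 of 10 genes passed by edgeR, 3 had an unadjusted p under 0.05, and DESeq2 and the likelihood ratio test each called 2, ULK1 and BECN1, while limma-voom called 0. Over all genes edgeR called 0% higher and 0% lower, with 2283 at an unadjusted p under 0.05, DESeq2 called 120 higher and 64 lower, the likelihood ratio test 332 and 128, and limma-voom 0 and 2. BECN1 and ULK1 came nearest, with log2 fold changes of 0.64 and 1.32 (adjusted p = 0.0952 and 0.105, edgeR). For both the libraries of the drugs did not overlap, which was not counted over all genes. Without cisplatin replicate 1, which enters only through the shared fit, ULK1 and BECN1 were called higher and GABARAP lower with Telmisartan, where 4.17% of all genes were called higher and 1.69% lower.

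**Figure D3:**
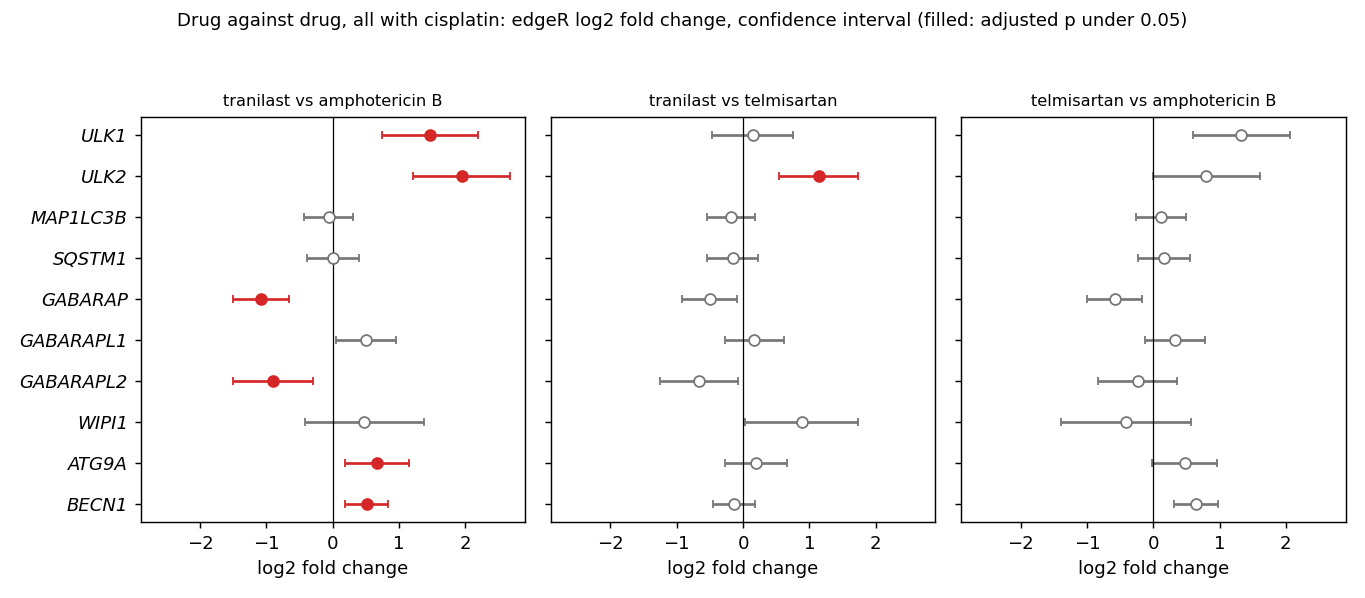
Log2 fold change (horizontal axis) with 95% interval of the 10 genes for each pair of drugs, all given with cisplatin, with filled red points for an adjusted p under 0.05. Tranilast against Amphotericin B has 6 filled points, Tranilast against Telmisartan has 1 (ULK2), and Telmisartan against Amphotericin B has 0.

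In the cisplatin and Telmisartan groups, several of the genes differed between the library that stands apart and the others, along with the mitochondrial rRNA share. In cisplatin replicate 1, where the share was 13.7%, ULK1 was at 20.2 CPM and GABARAP at 385 CPM, whereas replicates 2 and 3, with 5.61% and 3.41%, had 48.1 and 48.5 CPM of ULK1 and 268 and 245 CPM of GABARAP. Telmisartan replicate 3, with 3.61%, had more ULK1 and ULK2 (37.4 and 9.08 CPM) than replicates 1 and 2, with 10.8% and 12.9% (19.9 and 28.2 CPM of ULK1, 5.61 and 5.52 CPM of ULK2), and less GABARAP and GABARAPL2. SQSTM1 went with ULK1 here, with 425, 439 and 479 CPM in the cisplatin libraries and 378, 388 and 434 CPM in the Telmisartan libraries, highest in replicate 3 of each, but by smaller ratios. Other values did not follow the share. ULK2 had 6.72, 5.89 and 8.34 CPM in cisplatin replicates 1, 2 and 3. With Telmisartan, ULK1 was higher in replicate 2 (28.2 CPM at 12.9%) than in replicate 1 (19.9 CPM at 10.8%). The pattern therefore rests on the library that stands apart in each group. What the share stands for in these cells was not tested.

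**Figure D4:**
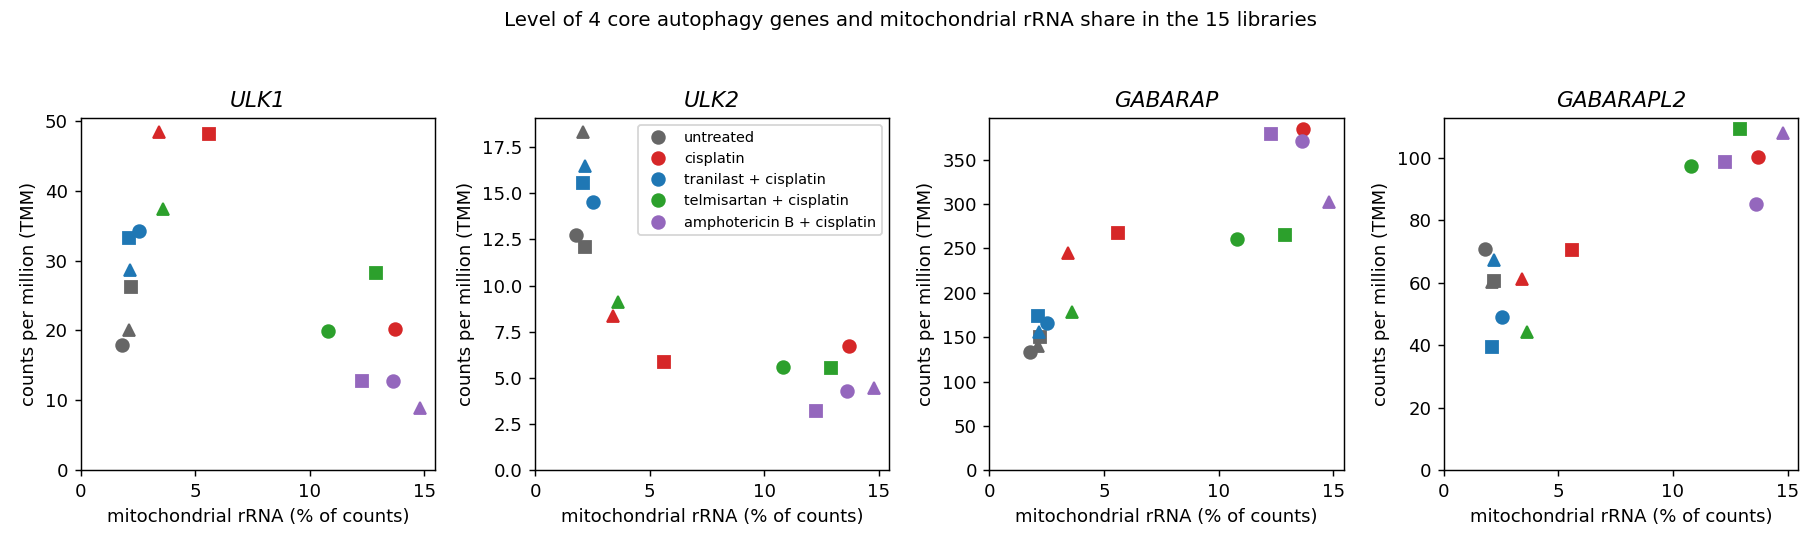
CPM (vertical axis) of ULK1, ULK2, GABARAP and GABARAPL2 against the share of counts on mitochondrial rRNA genes (horizontal axis) in the 15 libraries, with colours for the conditions and shapes for the replicates. Libraries above 10% have less ULK2 and more GABARAPL2 than those below 3%, and the Amphotericin B libraries lie apart from the untreated and Tranilast libraries.

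The rest of the pathway was described with 9 lists of genes by role, which hold 122 genes beside the 10. Of these, 110 were tested. With cisplatin alone 17 were higher and 38 lower (15.5% and 34.5%, against 21.1% and 23.6% of all genes), with a median log2 fold change of -0.34. In the initiation complex of the ULK kinases, 2 of 4 other genes rose and 1 fell. ULK3, a related kinase, had 116 ± 5.57 against 53.9 ± 2.09 CPM (log2 fold change 1.11, adjusted p = 4.77e-05) and RB1CC1, the scaffold known as FIP200, had 62.6 ± 15.4 against 114 ± 6.97 CPM (log2 fold change -0.86, adjusted p = 0.011). In the lipid kinase complex of BECN1, 1 of 8 rose and 5 fell. ATG14, which directs the complex to autophagy, had 29.4 ± 10.9 against 16.3 ± 0.883 CPM (log2 fold change 0.85, adjusted p = 0.0128), and AMBRA1, a regulator that binds BECN1, had 8.66 ± 2.20 against 37.4 ± 5.00 CPM (log2 fold change -2.09, adjusted p = 6.93e-05). Of the genes around ATG9A and WIPI1, 1 of 6 rose and 1 fell. The lipid transfer protein ATG2A had 79.5 ± 18.6 against 37.2 ± 6.58 CPM (log2 fold change 1.10, adjusted p = 0.00159) and the scramblase TMEM41B had 24.8 ± 3.31 against 42.4 ± 2.83 CPM (log2 fold change -0.77, adjusted p = 0.0124).

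Downstream of these, the conjugation enzymes that attach ATG8 proteins to the membrane were split, with 3 of 10 higher and 4 lower. ATG12, a ubiquitin-like protein, had 205 ± 34.4 against 106 ± 5.60 CPM (log2 fold change 0.94, adjusted p = 0.000515), and ATG10, the enzyme that conjugates it to ATG5, had 7.64 ± 6.49 against 70.6 ± 1.73 CPM (log2 fold change -3.26, adjusted p = 1.74e-05), the largest difference of these lists. Among the cargo receptors other than SQSTM1, 1 of 12 rose and 7 fell, with a median of -0.73. PHB2, a receptor for mitochondria, had 499 ± 77.9 against 355 ± 23.8 CPM (log2 fold change 0.49, adjusted p = 0.0408), and TAX1BP1, which binds ubiquitinated cargo as SQSTM1 does, had 124 ± 7.82 against 287 ± 7.40 CPM (log2 fold change -1.21, adjusted p = 2.1e-05). Of the fusion genes, 2 of 13 rose and 5 fell, among them VPS18 with 169 ± 72.2 against 54.4 ± 1.31 CPM (log2 fold change 1.64, adjusted p = 0.000134) and VPS41 with 18.8 ± 8.84 against 53.7 ± 4.93 CPM (log2 fold change -1.53, adjusted p = 0.000593), both subunits of lysosomal tethering complexes. Of the nutrient signaling genes, 4 of 30 rose and 6 fell, among them LAMTOR5 of the Ragulator complex with 132 ± 46.2 against 58.1 ± 2.54 CPM (log2 fold change 1.19, adjusted p = 0.000652) and MTOR itself with 8.10 ± 4.65 against 29.2 ± 0.441 CPM (log2 fold change -1.88, adjusted p = 0.000204). Of the TFEB family and lysosomal genes, 3 of 27 rose and 9 fell, with a median of -0.62, among them the lysosomal calcium channel MCOLN1 with 14.6 ± 5.04 against 2.95 ± 1.47 CPM (log2 fold change 2.25, adjusted p = 0.000934) and the membrane protein LAMP2 with 12.2 ± 5.02 against 50.1 ± 9.31 CPM (log2 fold change -2.06, adjusted p = 9.92e-05).

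With Tranilast, 17 of the 110 genes were higher and 12 lower than with cisplatin alone (15.5% and 10.9%, against 10.5% and 11.6% of all genes), with a median of 0.079. In the initiation complex, 1 of 4 was higher, RB1CC1 with 104 ± 4.01 against 62.6 ± 15.4 CPM (log2 fold change 0.73, adjusted p = 0.0449), and 2 were lower, led by ULK3 with 78.2 ± 1.05 against 116 ± 5.57 CPM (log2 fold change -0.57, adjusted p = 0.0163). In the lipid kinase complex, 1 of 8 was higher and 1 lower, AMBRA1 with 33.5 ± 4.18 against 8.66 ± 2.20 CPM (log2 fold change 1.93, adjusted p = 0.00163) and ATG14 with 16.4 ± 0.309 against 29.4 ± 10.9 CPM (log2 fold change -0.84, adjusted p = 0.027). These values and those of cisplatin against untreated cells share the cisplatin libraries. None of the 6 genes around ATG9A and WIPI1 passed (0 by edgeR, and 0 at an unadjusted p under 0.05). Of the conjugation enzymes, 3 of 10 were higher and 1 lower, ATG10 with 20.8 ± 5.75 against 7.64 ± 6.49 CPM (log2 fold change 1.52, adjusted p = 0.0174) and ATG12 with 117 ± 13.8 against 205 ± 34.4 CPM (log2 fold change -0.81, adjusted p = 0.00549) leading each direction.

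Of the receptors, 4 of 12 were higher with Tranilast and 1 lower, led by WDFY3, a scaffold for aggregates, with 7.94 ± 2.42 against 1.84 ± 1.32 CPM (log2 fold change 2.15, adjusted p = 0.00658) and by PHB2 with 341 ± 26.2 against 499 ± 77.9 CPM (log2 fold change -0.55, adjusted p = 0.0431). Of the fusion genes 2 of 13 were higher and 2 lower, led by the tether EPG5 with 5.15 ± 0.919 against 1.60 ± 0.630 CPM (log2 fold change 1.69, adjusted p = 0.0157) and the SNARE YKT6 with 121 ± 7.12 against 185 ± 35.8 CPM (log2 fold change -0.61, adjusted p = 0.0194). The cisplatin means of WDFY3 and EPG5 lie within the 0.853 to 1.99 CPM that 3 counts stand for before scaling. These rises therefore rest on few reads, and counting error is wide. Of the nutrient signaling genes 4 of 30 were higher and 2 lower. DDIT4, a stress-induced inhibitor of mTORC1, had 334 ± 11.1 against 91.8 ± 56.3 CPM (log2 fold change 1.86, adjusted p = 0.00321), and LAMTOR5 had 58.2 ± 4.80 against 132 ± 46.2 CPM (log2 fold change -1.18, adjusted p = 0.00328). Of the TFEB family and lysosomal genes 2 of 27 were higher and 3 lower, led by the proton pump subunit ATP6V1A with 34.5 ± 3.97 against 22.1 ± 5.32 CPM (log2 fold change 0.65, adjusted p = 0.0301) and the cholesterol carrier NPC2 with 58.8 ± 5.24 against 117 ± 38.8 CPM (log2 fold change -0.99, adjusted p = 0.0119).

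With Telmisartan, 0 of the 110 genes passed by edgeR, with 13 at an unadjusted p under 0.05 and a median of -0.026. Of all 11113 genes tested, 0 passed and 1150 had an unadjusted p under 0.05, with a median of 0.0023. Nothing particular to the lists is read from these counts. With Amphotericin B, 9 were higher and 13 lower than with cisplatin alone (8.18% and 11.8%, against 4.21% and 9.01% of all genes), with a median of -0.076. None of the 4 genes of the initiation complex passed (0 by edgeR, 1 at an unadjusted p under 0.05). In the lipid kinase complex 2 of 8 fell, led by NRBF2 with 5.78 ± 1.83 against 22.6 ± 14.3 CPM (log2 fold change -1.99, adjusted p = 0.0157), a subunit that binds ATG14. Around ATG9A and WIPI1 2 of 6 fell, led by ATG2A with 32.6 ± 1.20 against 79.5 ± 18.6 CPM (log2 fold change -1.29, adjusted p = 0.00662). Of the conjugation enzymes 1 of 10 rose, ATG10 with 28.3 ± 3.85 against 7.64 ± 6.49 CPM (log2 fold change 1.95, adjusted p = 0.011), and of the receptors 1 of 12 rose, WDFY3 with 8.37 ± 2.77 against 1.84 ± 1.32 CPM (log2 fold change 2.21, adjusted p = 0.0152). The rise of WDFY3 again rests on few reads with cisplatin alone. Of the fusion genes 4 of 13 rose and 2 fell, led by VPS41 with 37.6 ± 13.0 against 18.8 ± 8.84 CPM (log2 fold change 1.02, adjusted p = 0.0406) and VPS18 with 60.2 ± 11.5 against 169 ± 72.2 CPM (log2 fold change -1.50, adjusted p = 0.00479). Of the nutrient signaling genes 2 of 30 rose and 5 fell, led by MLST8, a subunit of mTORC1, with 165 ± 17.4 against 82.7 ± 24.3 CPM (log2 fold change 0.99, adjusted p = 0.00848) and the GTPase RRAGC with 41.9 ± 4.46 against 82.5 ± 16.7 CPM (log2 fold change -0.98, adjusted p = 0.00958). Of the TFEB family and lysosomal genes 1 of 27 rose and 2 fell, CTSA, a protease, with 129.8 ± 10.4 against 74.2 ± 18.1 CPM (log2 fold change 0.81, adjusted p = 0.0297) and the pump subunit ATP6V1B2 with 39.5 ± 3.31 against 102 ± 33.2 CPM (log2 fold change -1.38, adjusted p = 0.00404) leading each direction.

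With both libraries that stand apart left out, more genes were called in the lists and over all genes. Of the 110 genes, 26 were then higher and 48 lower with cisplatin (23.6% and 43.6%, against 27.1% and 28.4% of all genes), 31 higher and 22 lower with Tranilast (28.2% and 20%, against 18.1% and 18.2%), 10 higher and 17 lower with Telmisartan (9.09% and 15.5%, against 12.4% and 12.5%), and 24 higher and 26 lower with Amphotericin B (21.8% and 23.6%, against 20.5% and 22.9%). The 40 calls that choose the genes named here by the smallest adjusted p were all kept in that fit, and ATG10 with Tranilast was the 1 value that moved by over 1.5 times, to a log2 fold change of 2.41. These genes were picked from the same libraries and that fit calls more of all genes, so their being kept is not separate support.

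**Figure D5:**
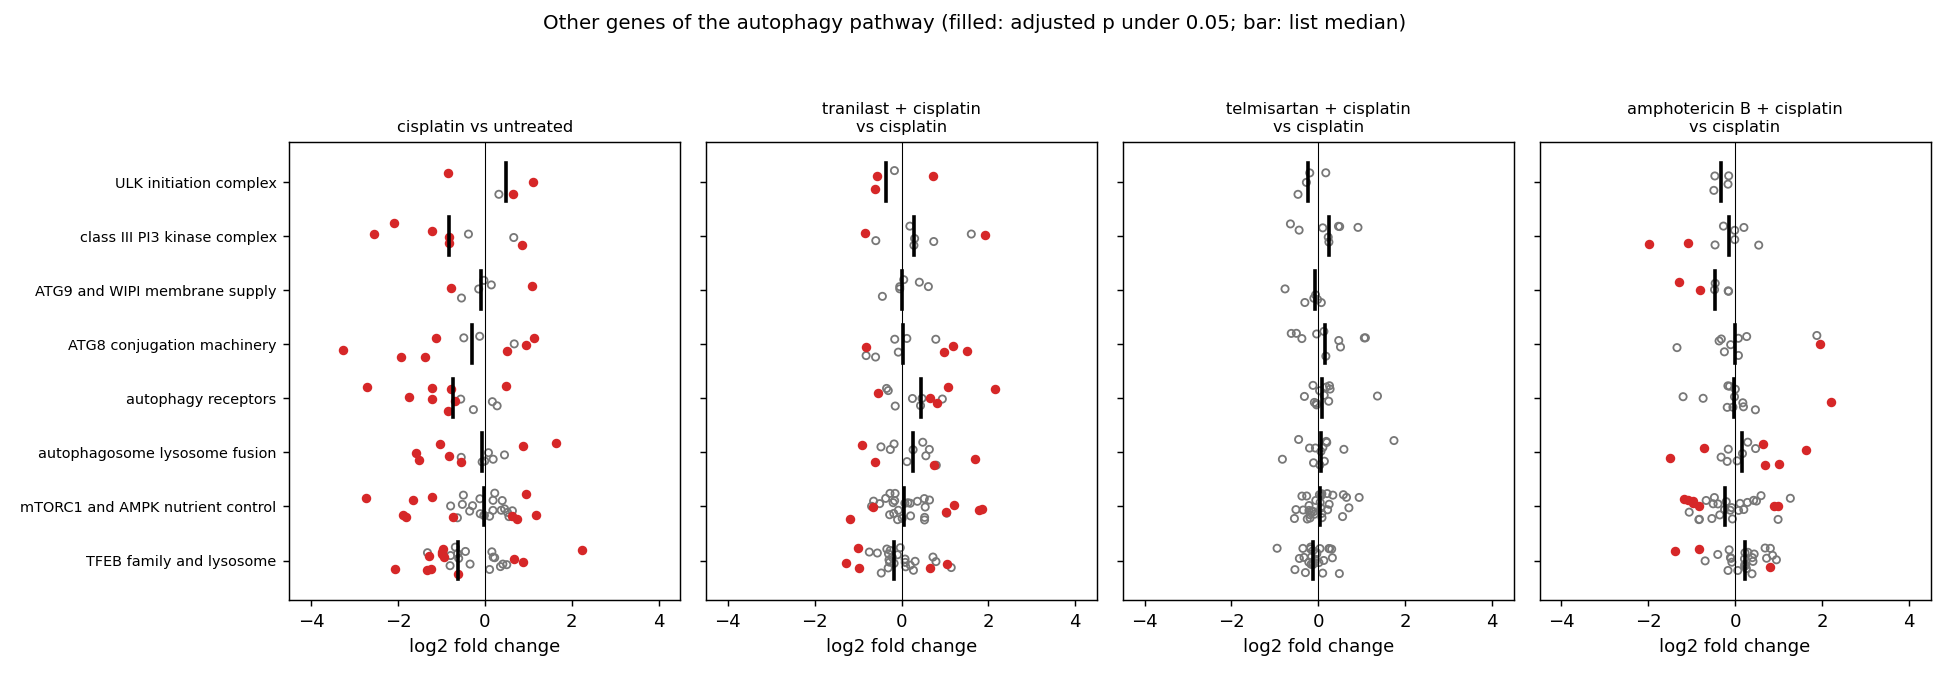
Log2 fold change (horizontal axis) of the other tested genes of 8 role lists in the 4 comparisons, 1 point a gene, with filled red points for an adjusted p under 0.05 and a black bar at the list median. The ATG8 list has no other tested gene and is not drawn. In cisplatin against untreated cells the bars of the receptors and of the lipid kinase complex lie at -0.73 and -0.82, and Telmisartan has no filled point.

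The genes whose levels over the 15 libraries were most like those of SQSTM1 and GABARAP, the 2 genes with the smallest adjusted p for cisplatin, are given as a description. For SQSTM1 these were TMEM97, CCND3 and THOP1 (Pearson r of log2 CPM 0.95, 0.95 and 0.94, n = 15 libraries), and for GABARAP they were AC002075.2, FBL and RPS4X (0.99, 0.98 and 0.98, n = 15). The 15 points fall into 5 conditions and share library depth and scaling, and GABARAP was in this way closest to genes of which FBL, a nucleolar methyltransferase, and RPS4X, a ribosomal protein, are not autophagy genes.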

How the data were processed

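Gene expression was measured by QuantSeq 3′ mRNA sequencing in 15 libraries of IGROV-CP20 cells, 3 in each of 5 conditions. The authors deposited a table for each library, in which every Ensembl gene has a raw count of reads that was not normalized. The submitters' processing notes name STAR 2.3.0, HTSeq and hg19. The strand setting and the annotation are not given in the sources used here, so it is not known whether reads of overlapping genes on the other strand were told apart. QuantSeq counts reads near the 3′ end and does not resolve isoforms.

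Of 47634 identifiers, 45776 were named and placed with GENCODE 29 (GRCh38). After filtering with filterByExpr, 11113 genes were tested. All 15 libraries entered a single quasi-likelihood fit with TMM scaling (edgeR 4.0.16, R 4.3.3), with p adjusted by Benjamini and Hochberg within each of 7 comparisons and a threshold of 0.05. Intervals are at 95%. Mean levels are TMM-scaled CPM, and a prior count of 2 entered log2 CPM. A floor of 3 counts and all intervals cover what these libraries show, without molecular identifiers. The fit was tested on simulated data. Alternatives were DESeq2 1.42.0, limma-voom (limma 3.58.1), the likelihood ratio test, RLE factors, scaling by totals, other filters, a fit of the 6 libraries compared, a replicate block, the mitochondrial rRNA share as a covariate, and leaving out each library. Leaving out both libraries that stand apart was added after seeing the data. Tables and figures used Python 3.11.15, pandas 2.3.3 and matplotlib 3.10.9. Promoter windows came from RefSeq (GRCh38.p14), where all 10 genes matched. For genes with several starts, the start shared by most GENCODE transcripts (within 50 bases) was used.

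The 10 genes, the lists and the markers were chosen with earlier results of these data known. The genes named are the 10 members, in each list and comparison the called gene with the smallest adjusted p in each direction, and the 3 genes most like each of the 2 members with the smallest adjusted p for cisplatin. Combinations with untreated cells were set side by side without a test.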

Additional observations from a re-analysis of the deposited data

Results flagged for a closer look

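The effects of the drugs on top of cisplatin differed between drugs for 6 genes by the direct test of Tranilast against Amphotericin B (edgeR, all adjusted over the genes tested). The log2 difference was 1.95 for ULK2, 1.47 for ULK1, 0.67 for ATG9A and 0.51 for BECN1, all higher with Tranilast, and -1.08 for GABARAP and -0.90 for GABARAPL2, both lower. Of all genes tested, 19.7% were called higher and 16.4% lower in this comparison, so calls were common. Every library of one drug was beyond every library of the other for each of these genes. How many of all genes lie apart in this way was not counted, so nothing particular to these genes is read from it. Between Tranilast and Telmisartan the test called ULK2, with a log2 difference of 1.14 and higher in 3 of 3 Tranilast libraries, where 0.585% of all genes were called higher and 1.75% lower. The mitochondrial rRNA share moves with these differences, and no gene of the 10 was called in either comparison when it was a covariate. Of all genes, that fit called 0.774% for Tranilast against Amphotericin B and 3.5% for Tranilast against Telmisartan.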

How the results depend on the processing

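In the fits that left out 1 library at a time, the number of the 10 genes called ranged from 3 to 6 for cisplatin against untreated cells (6 with all libraries), 1 to 4 for Tranilast (2), 0 for Telmisartan (0) and 1 to 3 for Amphotericin B (3), each against cisplatin, and from 3 to 7 for Tranilast against Amphotericin B (6), 0 to 4 for Tranilast against Telmisartan (1) and 0 to 3 for Telmisartan against Amphotericin B (0). Over all genes, those fits called 31.6% to 49.3% for cisplatin and 9.66% to 28.9% for Tranilast. They called 0% to 4.81% for Telmisartan and 1.83% to 33.8% for Amphotericin B. Between drugs the shares were 23.7% to 41.7%, 0% to 24.4% and 0% to 5.87%, in the same order. Without both libraries that stand apart the counts were 4 for Tranilast, 3 for Telmisartan, 6 for Amphotericin B, and 5 and 1 for the last pair of comparisons, while the share of all genes called in that fit was 36.3%, 24.9%, 43.4% and 36.6% for the first 4 of these (22.2%, 0%, 13.2% and 2.34% with all libraries), and 0.826% higher and 0.329% lower for the last (0% with all libraries). DESeq2 called 4 for Tranilast, where it called 25.4% of all genes. For Telmisartan against Amphotericin B, DESeq2 called 2, the likelihood ratio test 2 and the unfiltered fit 1. Over all genes those fits called 1.66%, 4.14% and 3.46% there. The fit of the 6 libraries compared called 0 for Amphotericin B and 0 for Tranilast against Telmisartan. It called 0.967% and 0% of all genes in these comparisons. For Tranilast against Telmisartan, limma-voom and scaling by totals also called 0 of the 10 genes. Over all genes they called 0.063% and 0.009% there. Counts of 0 of 10 are close to these shares. With the mitochondrial rRNA share as a covariate the counts were 4 for Tranilast, 0 for Tranilast against Amphotericin B and 0 for Tranilast against Telmisartan. That fit called 26.2%, 0.774% and 3.5% of all genes in these comparisons. Only the smaller fits have fewer samples by construction, and for the other changes the cause was not tested.

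Of the 468 recomputed values for the 18 calls, 386 kept their side of the threshold, 81 no longer passed and 1 changed sign, GABARAPL2 in Tranilast against Amphotericin B with the mitochondrial rRNA share (log2 0.24). Other changes of sign were in results that the main fit did not call, though some of these results were called in another fit. With scaling by totals, where the median of all genes lay between -0.36 and 0.81, they were MAP1LC3B, GABARAPL2, ATG9A and BECN1 for cisplatin (-0.16, -0.13, -0.065 and -0.32), ULK1, MAP1LC3B, SQSTM1, GABARAPL1 and BECN1 for Tranilast (0.098, 0.044, 0.12, 0.17 and 0.34), ULK2 for Telmisartan (0.13), MAP1LC3B in Tranilast against Amphotericin B (0.60, called with its sign turned, adjusted p = 0.00946, edgeR) and MAP1LC3B, SQSTM1 and BECN1 in Tranilast against Telmisartan (0.19, 0.18 and 0.22). With the mitochondrial rRNA share they were MAP1LC3B and GABARAPL2 for cisplatin (-0.044 and -0.31), ATG9A for Tranilast (-0.085), ULK2 and GABARAPL2 for Telmisartan (0.053 and -0.10), GABARAP and GABARAPL2 for Amphotericin B (-0.095 and -0.24), MAP1LC3B, SQSTM1, GABARAPL1 and WIPI1 in Tranilast against Amphotericin B (0.46, -0.19, -0.37 and -0.997), ULK1, MAP1LC3B, GABARAPL1, GABARAPL2 and ATG9A in Tranilast against Telmisartan (-0.45, 0.13, -0.33, 0.099 and -0.16) and GABARAPL1 and GABARAPL2 in Telmisartan against Amphotericin B (-0.046 and 0.14). Without a filter they were BECN1 for cisplatin (-0.014), ULK2 for Telmisartan (0.037) and MAP1LC3B in Tranilast against Amphotericin B (0.062), and ULK2 for Telmisartan also turned by the likelihood ratio test (0.0093) and with a CPM above 1 in 3 libraries (0.030). Without both libraries that stand apart they were MAP1LC3B, GABARAP, WIPI1 and ATG9A for Telmisartan (0.035, 0.031, -0.53 and -0.30) and GABARAPL2 in Telmisartan against Amphotericin B (0.092). DESeq2 turned ATG9A for Telmisartan (-0.0023) and SQSTM1 in Tranilast against Amphotericin B (-0.12), RLE factors the same (-0.0036 and -0.12), and the smaller fit SQSTM1 there (-0.14). Leaving out 1 library, the values that turned in at least 1 fit were BECN1 for cisplatin (-0.016 to 0.089), ULK2 for Telmisartan (-0.34 to 0.16), GABARAPL2 for Telmisartan (-0.14 to 0.43), WIPI1 for Telmisartan (-0.26 to 1.08), ATG9A for Telmisartan (-0.22 to 0.19), SQSTM1 in Tranilast against Amphotericin B (-0.17 to 0.27), ULK1 in Tranilast against Telmisartan (-0.048 to 0.42) and GABARAPL2 in Telmisartan against Amphotericin B (-0.47 to 0.092).

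Pairing by replicate number was not seen on average (mean correlation of same-numbered deviations 0.02, range -0.23 to 0.63 over 30 pairs, and -0.012 for different numbers). Both libraries that stand apart enter these deviations under different numbers, so the mean cannot exclude pairing among the others. With a replicate block, 5 genes were called for cisplatin (GABARAPL1 was lost), 3 for Tranilast (WIPI1 was gained), 0 for Telmisartan, 3 for Amphotericin B, and 6, 1 and 0 between drugs. Over all genes the block called 44.8%, 22.7%, 0% and 13.4%, and 35.8%, 3.99% and 0.009% between drugs, in the same order. Depth limits WIPI1 and ULK2 most, with 4 to 73 counts of ULK2 in a library.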
